A study of Mus musculus with 23 samples.

Results

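Collagen genes were examined for open chromatin in mesenchyme from the maxillary prominence of mouse embryos, a part of the face that gives rise to upper jaw and palate. A region belonged to the set when its strongest peak summit lay nearest to, or inside, a protein-coding gene whose symbol has the form Col, number, a, number at most 100 kb away. By this rule 431 of 118102 regions were collagen regions, and all 44 collagen genes of the mm10 RefSeq annotation had at least 1. The genes fell into 7 fibrillar collagens with 59 regions, 8 cartilage collagens with 36, 9 basement membrane collagens with 92 and 20 other collagens with 244. The rule rests on position and gene symbol, and used the strength of peaks only to choose the summit that placed a region.

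The tissue came from wild-type C57BL/6 embryos at embryonic day 10.5 (E10.5), E11.5 and E12.5, with 3 biological samples at each stage and no treatment or mutant group. Per the labels, the ectoderm was peeled from the prominence after an enzyme digest, and the remaining mesenchymal cells were profiled by ATAC-seq, in which the transposase Tn5 inserts adapters into open chromatin. The sources used here do not say how many embryos went into a sample. All p-values therefore describe only these samples, and the spread behind them was largely pooled over genes. Each sample has 1 deposited list of peaks, built from 1 to 4 libraries, and a region is a stretch where peaks of the 9 lists overlapped by at least 1 bp. A list calls a region when it holds a peak there, and a missing call means only that no peak passed the authors' threshold in that list.

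There were 16057, 19095 and 14886 peaks in the E10.5 lists, 5682, 24908 and 41457 in those of E11.5, and 26584, 50361 and 19139 in those of E12.5. E11.5 sample 1 was the shortest list by a wide margin. The highest fold over background in a list, the authors' own value, was 5.83 to 7.47 in the 3 E10.5 lists and in E12.5 samples 2 and 3, and 14.7 to 20.4 in the 3 E11.5 lists and E12.5 sample 1. Regions of marker genes of other cell types were called too: the 6 epithelial markers had 2 to 6 calls per E10.5 list, 2 to 15 per E11.5 list and 5 to 26 per E12.5 list, and the 4 mesenchyme markers 5 to 7, 1 to 19 and 8 to 21. A peak call near a marker gene does not measure its expression, and the part of other cell types in the results below was not tested except where their values are given beside a result.

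Collagens are extracellular matrix proteins made of 3 chains wound into a triple helix. Fibrillar collagens such as types I, III and V form the cross-banded fibres of skin, bone and tendon, and types II, IX and XI build the thin fibrils of cartilage. Fibril-forming collagens of cartilage, such as types II and XI, are counted here in the cartilage class and not in the fibrillar class. Type IV collagen forms the sheet-like network of basement membranes, to which types XV and XVIII are attached, and type VI makes beaded filaments around cells. In the facial mesenchyme, which is largely of neural crest origin, collagens accompany the later condensation of cells into cartilage and bone.

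Sequences before the start sites of 5 collagen genes are shown because the peak calls around them ran from 7 of 9 lists to none, where collagen starts as a whole ran from 8 to 0. They come from RefSeq on GRCm38.p6, the assembly of mm10, and all 5 lie on the plus strand. The genes are Col11a1 (chr3:114030290-114030478, 7 lists within 1 kb of the start), the downstream start of Col9a1 (chr1:24194953-24195202, 7 lists), Col1a2 (chr6:4505368-4505617, 5 lists), Col16a1 (chr4:130047590-130047816, 4 lists) and Col3a1 (chr1:45311288-45311537, 0 lists). Each reads 5′ to 3′ in the direction of transcription, and capitals mark a CCAAT box (CCAAT or its reverse complement ATTGG) or a TATA box (TATAAA or its reverse complement). The strings of Col11a1 and Col16a1 end 61 and 23 bases before the start, because bases inside the annotated gene span were left out there, and the other 3 run up to the start. Col11a1, Col16a1 and Col3a1 were chosen after their values were seen.
Col11a1: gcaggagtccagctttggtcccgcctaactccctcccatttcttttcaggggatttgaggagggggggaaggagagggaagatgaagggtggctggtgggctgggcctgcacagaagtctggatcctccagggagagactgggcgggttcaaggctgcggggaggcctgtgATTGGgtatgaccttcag
Col9a1: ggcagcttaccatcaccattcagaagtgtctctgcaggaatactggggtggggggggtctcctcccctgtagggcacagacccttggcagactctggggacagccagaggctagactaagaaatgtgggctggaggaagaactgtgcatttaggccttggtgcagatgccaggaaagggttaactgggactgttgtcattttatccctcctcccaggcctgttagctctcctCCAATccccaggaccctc
Col1a2: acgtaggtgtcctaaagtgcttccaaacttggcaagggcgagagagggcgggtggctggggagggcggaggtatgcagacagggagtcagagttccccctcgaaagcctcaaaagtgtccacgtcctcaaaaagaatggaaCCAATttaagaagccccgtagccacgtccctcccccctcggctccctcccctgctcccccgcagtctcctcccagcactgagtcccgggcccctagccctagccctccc
Col16a1: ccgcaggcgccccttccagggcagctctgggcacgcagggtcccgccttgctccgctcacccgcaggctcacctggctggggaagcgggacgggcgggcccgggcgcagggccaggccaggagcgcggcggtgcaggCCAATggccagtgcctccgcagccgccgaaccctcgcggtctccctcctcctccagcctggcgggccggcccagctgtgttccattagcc
Col3a1: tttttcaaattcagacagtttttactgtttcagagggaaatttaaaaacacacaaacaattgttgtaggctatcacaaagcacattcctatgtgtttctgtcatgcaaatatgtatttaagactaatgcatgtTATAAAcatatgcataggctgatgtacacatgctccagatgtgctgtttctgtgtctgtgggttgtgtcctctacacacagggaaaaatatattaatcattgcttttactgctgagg

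The CCAAT box began at -79 from the start of Col11a1, at -109 from that of Col1a2, at -113 from that of Col16a1 and at -18 from the downstream start of Col9a1. No CCAAT box lay in the window of Col3a1, which had a TATAAA at -117. Because some of these genes were chosen after their values were seen, the windows cannot show whether a CCAAT box goes with calls. The windows differed in CG dinucleotides, counted over all 250 bases before a start, with 21 for Col16a1, 11 for Col1a2, 7 for Col11a1 and 0 for both Col9a1 and Col3a1. Col9a1 was thus called by as many lists as Col11a1 at a start without a single CG.

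Most collagen regions were seen in a single list. Of the 431 regions, 300 (69.6%) were called by 1 list, against 68.8% of all regions, and 51 (11.8%) by at least 3 lists, against 15.9%. No collagen region was called by all 9 lists, whereas 1206 regions (1.02%) of the genome were. A smaller share of collagen regions lay near a gene boundary: 38 (8.82%) had their summit within 1 kb of the start or end of a gene, against 16.1% of all regions within 100 kb of a gene. A larger part lay inside gene bodies, 68.4% against 59.9%, and their median width of 194 bp was close to the 195 bp of all regions. Exons, introns and untranslated regions were not separated here.

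The classes differed in where their regions lay. Of the fibrillar regions 45.8% were inside genes, against 80.6% of the cartilage regions, 73.9% of the basement membrane regions and 70.1% of the others. The cartilage class had the largest share of regions called by at least 3 lists, 9 of 36 (25%), and the other classes had 10.2% to 10.9%. Regions per gene ran from 1 to 35 with a median of 7.5. Col23a1, a transmembrane collagen, had the most with 35, of which 34 lay inside the gene over 1 kb from its ends, followed by Col4a1 with 29 and Col26a1 with 28.

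The plot of recurrent regions shows the 51 collagen regions called by at least 3 lists.

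**Figure D1:**
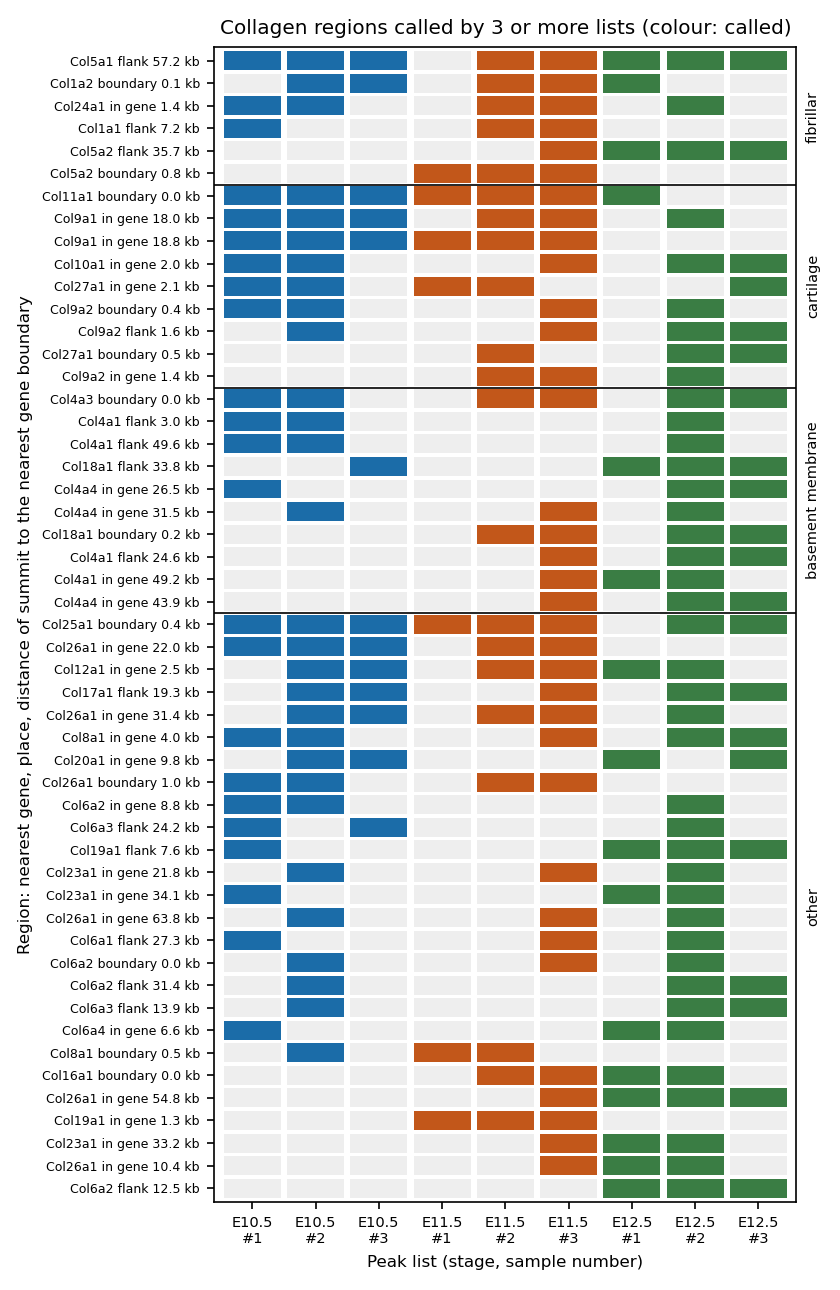
Each row is 1 of the 51 collagen regions called by 3 or more of the 9 lists, labelled by nearest gene, place and distance of its summit to the nearest gene boundary in kb. Coloured cells are calls (blue E10.5, orange E11.5, green E12.5), and rows are grouped by class, with 6 fibrillar, 9 cartilage, 10 basement membrane and 26 other regions.

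Per list, collagen regions made up 0.303%, 0.268% and 0.238% of the called regions in the E10.5 lists, 0.146%, 0.362% and 0.338% in those of E11.5, and 0.343%, 0.349% and 0.289% in those of E12.5. The stage means were 0.27% ± 0.0324 (SD, n = 3), 0.282% ± 0.119 (n = 3) and 0.327% ± 0.0327 (n = 3). The lowest share belonged to the shortest list, E11.5 sample 1, and the ranges of all stages overlapped. The collagen calls themselves were 46, 50 and 33 in the E10.5 lists, 8, 89 and 129 in those of E11.5, and 87, 170 and 53 in those of E12.5. Regions called by at least 2 of the 3 lists of a stage numbered 25 in the E10.5 lists, 40 in those of E11.5, and 47 in those of E12.5, which was 0.258%, 0.277% and 0.299% of all such regions.

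Because long lists call more regions, calls were also divided by the number expected from how many regions each list called and how many lists called each region. Over all collagen regions this ratio was 0.925 ± 0.108 (SD, n = 3) in the E10.5 lists, 0.935 ± 0.24 (n = 3) in those of E11.5, and 1.01 ± 0.0564 (n = 3) in those of E12.5. The 3 ranges overlapped. This changed when only strong peaks entered. With every list shortened to the length of the shortest, 54 collagen regions were left, and their shares were 0.127%, 0.178% and 0.111% in the E10.5 lists, 0.163%, 0.0881% and 0.0535% in those of E11.5, and 0.216%, 0.286% and 0.235% in those of E12.5, so that every E12.5 list was above every other. With a −log10 q of at least 5, which left 71 regions, the stage means were 0.117% ± 0.0636 (SD, n = 3), 0.155% ± 0.0801 (n = 3) and 0.26% ± 0.0406 (n = 3), and the ranges of E11.5 and E12.5 overlapped. The ratios of calls to expected calls were 1.52 ± 0.222 (n = 3) at E12.5 with equal lengths and 1.84 ± 0.156 (n = 3) with the stricter q, above every list of the other stages in both. The share of all called regions that lay within 1 kb of a gene boundary moved with this, at 59.2% to 65.4%, 72.9% to 79.5% and 23.6% to 45.3% at the successive stages with equal lengths. With expected calls computed separately for regions near and away from a boundary, the collagen ratios at equal lengths were 0.882, 1.24 and 0.708 in the E10.5 lists, 1.29, 0.714 and 0.472 in those of E11.5, and 0.878, 1.34 and 1.23 in those of E12.5, and the stages overlapped. With the stricter q they were 0.569 to 1.35, 0.684 to 0.993 and 1.07 to 1.53 at the successive stages. There E12.5 overlapped E10.5, while every E12.5 list was above every E11.5 list. These ratios were added after the data were seen.

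Basement membrane collagens were the class whose ratios separated a stage. Their regions were called 6 to 12 times per list in the E10.5 lists, 1 to 24 times in those of E11.5, and 12 to 40 times in those of E12.5. Calls over expected calls were 0.819, 1.08 and 0.792 in the E10.5 lists, 0.468, 0.76 and 0.893 in those of E11.5, and 1.28, 1.12 and 1.1 in those of E12.5. Every E12.5 list was thus above every E10.5 and E11.5 list, although the gap between the lowest E12.5 and the highest E10.5 list was small. Regions away from gene boundaries moved in the same way across the genome: for all 53084 regions inside a gene and over 1 kb from a boundary the ratio was 0.965 ± 0.00612 (n = 3) in the E10.5 lists, 0.783 ± 0.17 (n = 3) in those of E11.5, and 1.12 ± 0.0396 (n = 3) in those of E12.5. With expected calls computed separately for regions near and away from a boundary, the basement membrane ratios were 0.852, 1.11 and 0.797 in the E10.5 lists, 0.629, 0.828 and 0.919 in those of E11.5, and 1.15, 1.09 and 1.06 in those of E12.5, and E12.5 no longer stood above E10.5. Endothelial cells lie on a basement membrane, and the 5 endothelial markers, of which all had regions, had ratios of 0.51 to 1.23 in the E10.5 lists, 0 to 0.865 in those of E11.5, and 1.04 to 1.64 in those of E12.5. Muscle fibres are also wrapped in a basement membrane. The 3 muscle markers, all with regions, had ratios of 0.378 to 0.754 in the E10.5 lists and 0 to 0.784 in those of E11.5. At E12.5 their ratios were 1.03 to 2.16, with no overlap with the earlier stages. Pax7 held 29 of the 38 muscle regions, and Erg 47 of the 97 endothelial ones. The 1 region of the muscle marker Myf5 had 0 calls at E12.5. The 6 epithelial markers had ratios of 0.434 to 0.995, 0.584 to 1.76 and 0.561 to 1.7 at the successive stages, which overlapped. The 4 nerve and glia markers had 0.602 to 1.18, 1.04 to 1.32 and 0.482 to 1, with every E12.5 list below every E11.5 list. Blood markers had 0 to 0.705, 0 to 1.87 and 0.72 to 1.12. Mesenchyme markers had 0.818 to 0.933, 0.392 to 1.2 and 0.772 to 1.22. These marker ratios do not separate regions near and away from a boundary. The part of any of these cell types in the basement membrane result was not tested.

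Fibrillar collagens showed the widest scatter at E11.5. Their ratios were 1.11, 0.376 and 0.879 in the E10.5 lists, 0.526, 1.74 and 1.12 in those of E11.5, and 0.885, 0.945 and 0.767 in those of E12.5, and the ranges overlapped. The highest value, in E11.5 sample 2, came from 19 calls against 10.9 expected. For the cartilage collagens the ratios were 1.19, 1.11 and 0.56 in the E10.5 lists, 1.68, 1.18 and 1.09 in those of E11.5, and 0.208, 1.24 and 0.987 in those of E12.5. E12.5 sample 1 stood apart with 2 cartilage calls against 9.62 expected, while the other E12.5 lists were near expectation. The other collagens stayed close to expectation in most lists, at 0.899 to 1.08, 0.491 to 1.12 and 0.927 to 1.23 at the successive stages. No p-value is given for these class totals, since the members were chosen with earlier results known.

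**Figure D2:**
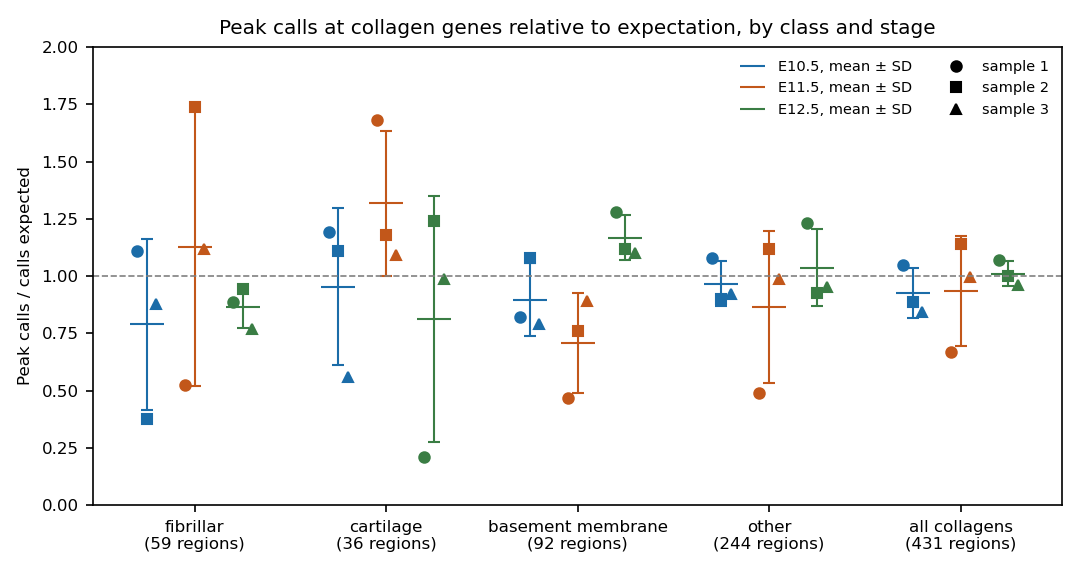
Peak calls divided by expected calls (y axis, no unit) for each collagen class and for all collagens, by stage. Symbols are the 3 samples of a stage, horizontal bars with whiskers the mean ± SD (n = 3), and the dashed line marks a ratio of 1. The basement membrane lists of E12.5 lie at 1.1 to 1.28, above all lists of the other stages. With expected calls computed separately for regions near and away from a boundary, which is not drawn, E12.5 no longer stood above E10.5.

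Near gene boundaries the stages differed in the opposite sense. The 38 collagen regions within 1 kb of a boundary had ratios of 0.887, 1.1 and 0.485 in the E10.5 lists, 2.22, 2.18 and 1.17 in those of E11.5, and 0.368, 0.641 and 0.866 in those of E12.5, so that every E11.5 list was above every other list. All 17256 boundary regions of the genome moved the same way, with 1.08 ± 0.0653 (n = 3), 1.36 ± 0.139 (n = 3) and 0.696 ± 0.163 (n = 3).

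Single start sites could be followed for 35 of the 44 collagen genes, with 38 RefSeq starts on GRCm38.p6. Peaks lay within 1 kb of a start for 7, 11 and 5 of the 35 genes in the E10.5 lists, for 8, 19 and 15 in those of E11.5, and for 3, 9 and 6 in those of E12.5. As shares these were 20%, 31.4% and 14.3%, then 22.9%, 54.3% and 42.9%, then 8.57%, 25.7% and 17.1%. Among 17274 protein-coding genes the shares were 33.5%, 37.5% and 28.8%, then 23.9%, 53.5% and 54.7%, then 18.8%, 35.9% and 27.1%. In 8 of the 9 lists the collagen share was the lower one, the exception being E11.5 sample 2. Over all lists, 23 of the 35 genes (65.7%) had a start called at least once, against 65.3% of protein-coding genes, but 0 were called in all 9 lists, against 6.89%.

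Sequence before the starts was searched for common promoter motifs. A GC box (GGGCGG) on either strand lay in the 250 bases before 57.9% of the 38 collagen starts, against 43.1% of 21045 protein-coding starts. CCAAT was as common before collagen starts as elsewhere, 34.2% against 35.6%, and so was TATAAA, 13.2% against 11.7%. The 14 collagen starts called by no list had a median of 3 CG dinucleotides, the 12 called by 1 to 3 lists 14, and the 12 called by 4 or more lists 10.5. For all protein-coding starts the medians of these groups were 2, 10 and 18. Of the 12 collagen starts called by 4 or more lists 9 (75%) had a GC box and 0 a TATAAA, beside 66.6% and 4.68% of all protein-coding starts called that often. CCAAT lay before 28.6%, 25% and 50% of the collagen starts called by 0, 1 to 3 and 4 or more lists. For all protein-coding starts these shares were 36.3%, 31.7% and 37.6%. A match is a run of letters and not a shown binding site.

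**Figure D3:**
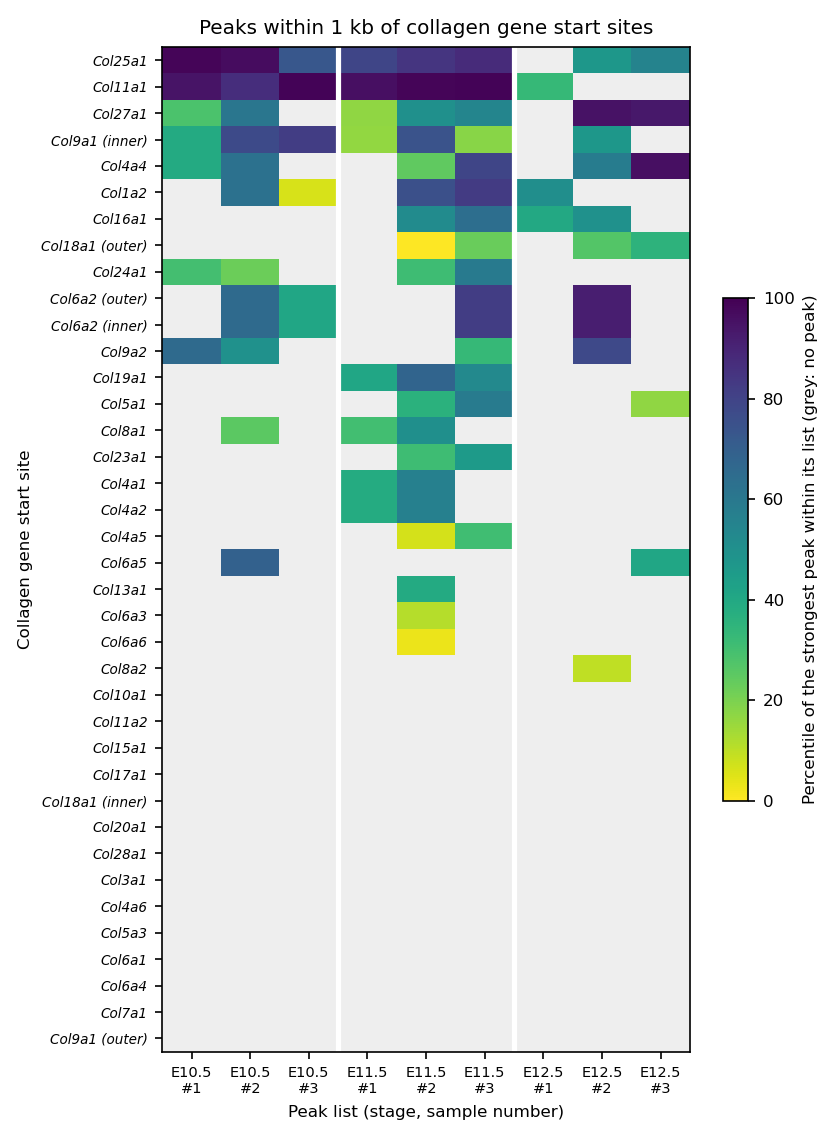
Rows are 38 start sites of 35 collagen genes and columns the 9 peak lists. Colour gives the percentile, within its own list, of the authors' −log10 p for the strongest peak within 1 kb of the start, and grey means no peak. Col25a1 was called in 8 lists and Col11a1 in 7, and 14 starts were called in none.

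Of the 6 cartilage collagens with a start in the RefSeq table, 4 were called there by at least 4 lists, against 11 of 35 collagen genes (31.4%) and 40.4% of protein-coding genes. Col11a1, the alpha-1 chain of type XI collagen, which sets the width of cartilage fibrils, had a peak over its start (chr3:114030094-114030969) in every E10.5 and E11.5 list and in E12.5 sample 1. Its fold over background was 4.85, 3.44 and 4.33 in the E10.5 lists, 8.73, 11.4 and 11.4 in the E11.5 lists and 3.5 in E12.5 sample 1. In the 6 earlier lists it ranked between percentiles 86.8 and 99.1 of its list by the authors' −log10 p, and at percentile 33.1 in E12.5 sample 1, while E12.5 samples 2 and 3 had no peak there. Folds and percentiles describe a peak within its own list and are not compared between lists. Col11a1 had 3 regions and so was not among the genes tested.

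Col9a1, a chain of the type IX collagen that coats cartilage fibrils, showed calls at its downstream start only. The upstream start, 17.6 kb before the other, was called in 0 lists. A region over the downstream start (chr1:24194888-24195826) was called in all 3 lists of E10.5, in E11.5 samples 2 and 3 and in E12.5 sample 2. The neighbouring region chr1:24195943-24196526, with its summit 1164 bp after the downstream start, was called in every E10.5 and E11.5 list and in 0 of 3 at E12.5. Its folds were 4.2, 2.82 and 2.83 at E10.5 and 4.32, 6.69 and 3.36 at E11.5. Col9a1 had calls of 2, 2 and 2 in the E10.5 lists, 1, 3 and 3 in those of E11.5, and 0, 1 and 0 in those of E12.5 over its 4 regions.

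Col2a1, the chain of type II collagen and the main protein of cartilage matrix, was sparsely called. Its 5 regions had 1, 0 and 0 calls in the E10.5 lists, 0, 1 and 2 in those of E11.5, and 0, 2 and 1 in those of E12.5, and no region was called by more than 2 lists. The residual differences of Col2a1, defined with the gene test below, lay between -0.26 and 0.32, with adjusted p-values of 0.905 to 0.991 (limma). Col27a1, a cartilage collagen with the most regions of its class, had 14. Its region chr4:63215954-63216738, 659 bp after its start, was called in 5 lists, and chr4:63213953-63214735 in E11.5 sample 2 and E12.5 samples 2 and 3. The latter ranked at percentiles 95.1 and 93.6 of these E12.5 lists. Col9a2, the partner chain of Col9a1, had 5 regions, of which chr4:121039687-121040285 at the start was called in 4 lists, 2 of them at E10.5.

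Among the fibrillar genes, Col1a2 was the collagen gene that passed the gene test. Col1a2 encodes the alpha-2 chain of type I collagen, the main fibre of bone and skin. Its 7 regions had 0, 1 and 1 calls in the E10.5 lists, 0, 7 and 3 in those of E11.5, and 1, 0 and 0 in those of E12.5, where the model of list length and of how many lists called each region predicted 0.922, 1.16 and 0.827, then 0.251, 1.56 and 2.44, then 1.62, 3.08 and 1.14. The calls of E11.5 samples 2 and 3 stood above those of every other list, and E11.5 sample 1, the shortest list, had none. Against expectation the surplus lay mainly in E11.5 sample 2, with 7 calls against 1.56, while E11.5 sample 3 had 3 against 2.44. The gene test used a residual, the surplus of calls over expectation in units of its expected standard deviation, for each gene with at least 5 regions that some but not all lists called. It was compared between stages with limma and Benjamini-Hochberg adjustment over 7342 genes. The spread was largely pooled over genes, so an SE says little about how the lists of a single gene varied. From E11.5 to E12.5 the Col1a2 residual fell by 3.29 (SE 0.907, adjusted p = 0.0227). Of its 7 regions 6 were called at E11.5 alone, and the lists of E10.5 and E12.5 supplied 1. Col1a2 therefore reached the minimum of 5 regions through the stage with the most calls, which favours a difference, and its value is given as a description. The same held for 134 of the 233 genes (57.5%) that passed in this comparison.

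This was 1 of 32 collagen genes tested (3.12%), beside 3.17% of all genes in either direction and 2.07% with fewer calls, so the share of collagen genes was near the background. The comparison of E11.5 with E10.5 gave a Col1a2 difference of 2.18 (SE 0.907, adjusted p = 0.385, limma), and that of E12.5 with E10.5 gave -1.12 (adjusted p = 0.763). Of the 7 regions of Col1a2, 4 were called in E11.5 sample 2 alone. Without that list the gene had fewer than 5 regions and was not tested, so the call rests on it. Leaving out E10.5 sample 3, or E12.5 sample 1, 2 or 3, also ended it, with adjusted p-values of 0.0503, 0.0563, 0.142 and 0.0596 (limma), at differences of -3.22, -3.66, -2.58 and -3.41.

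The regions of Col1a2 were its start and 6 flanking sites. The start region chr6:4505241-4506385, which holds the sequence shown above, was called in E10.5 samples 2 and 3, in E11.5 samples 2 and 3 and in E12.5 sample 1, with folds of 2.89, 2.33, 7.1, 4.65 and 3.72. Of the flanking regions 2 were shared by E11.5 samples 2 and 3, at chr6:4456578-4457922 (47.9 kb before the start) and chr6:4489396-4489654 (16 kb before it), with folds of 8.53 and 3.2 for the former and 6.26 and 4.49 for the latter. None of the 6 flanking regions was called in an E10.5 or E12.5 list.

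**Figure D4:**
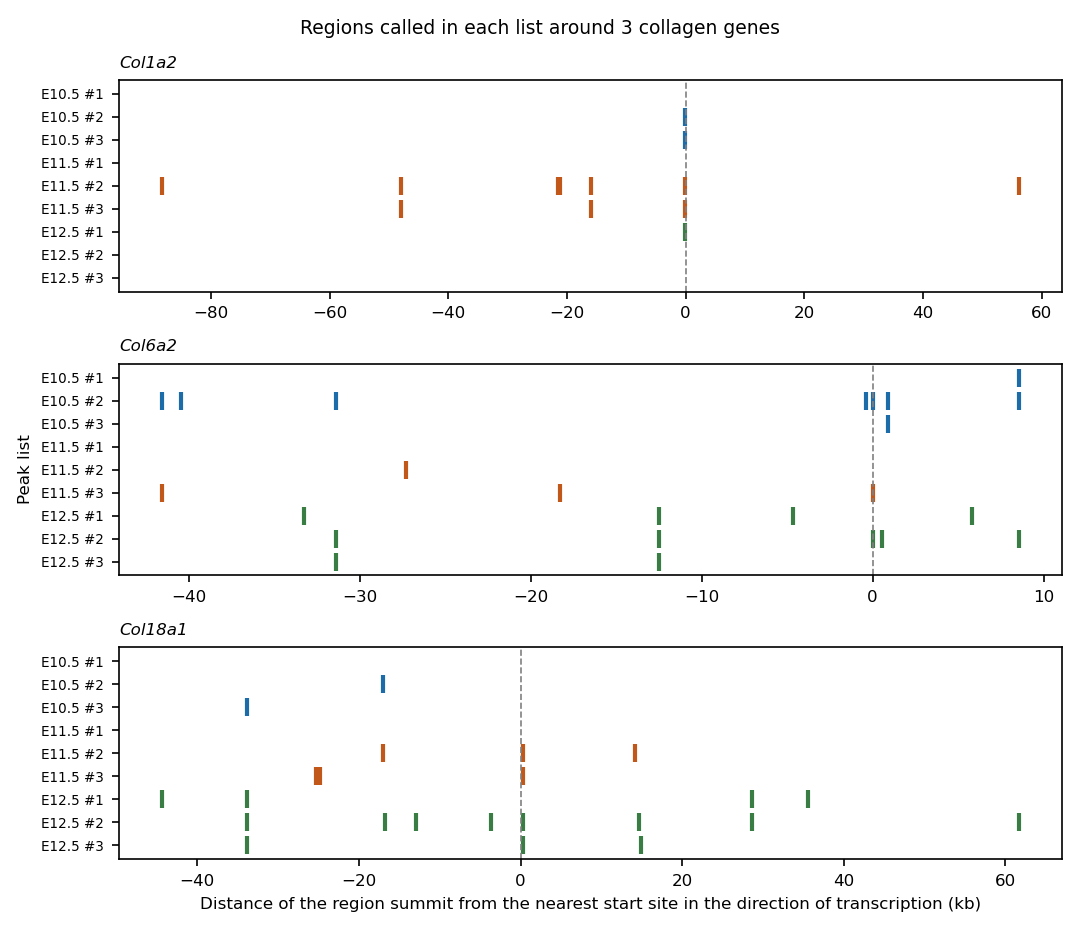
Ticks mark the summits of regions called in each of the 9 lists (rows; blue E10.5, orange E11.5, green E12.5) by distance in kb from the nearest start site, with negative values before the start, for Col1a2, Col6a2 and Col18a1. The 6 flanking Col1a2 regions appear in E11.5 samples 2 and 3 alone, and the Col6a2 region 12.5 kb before the start in the 3 E12.5 lists.

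Col5a2, a chain of the type V collagen that starts fibril assembly, had 3 regions and was not tested. Its calls were 0, 0 and 0 in the E10.5 lists, 1, 1 and 3 in those of E11.5, and 1, 2 and 1 in those of E12.5. The region chr1:45502172-45503231, inside the gene with its summit 836 bp from a gene boundary, was called in all 3 E11.5 lists and no other. The region chr1:45538709-45539186, 35.7 kb outside the gene, was called in E11.5 sample 3 and all 3 E12.5 lists. Col3a1, the type III collagen chain that lies next to Col5a2 with 24.6 kb between them, had 1 region, inside the gene, called in E11.5 samples 2 and 3, and 0 at its start.

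Col5a1, the other main chain of type V collagen, had 24 regions, the most of the fibrillar class. The most widely called fibrillar region was chr2:27828874-27829737, 57.2 kb from Col5a1, which was called in 8 lists, the exception being E11.5 sample 1. Within its own list it ranked at percentiles 74.7, 79.2 and 12.9 for E10.5, 24.5 and 33.4 for E11.5 samples 2 and 3, and 95.1, 97 and 94.6 for E12.5. Col24a1, a fibrillar collagen of developing bone, had 9 regions, and chr3:145292358-145293917 with its summit 1.38 kb after the start was called in 5 lists. Col5a3 had 8 regions, none called by more than 1 list. Col1a1, named after its values were seen, is the partner chain of Col1a2 and had calls of 2, 0 and 0, then 0, 2 and 2, then 1, 4 and 1, with a residual difference of 0.16 (SE 0.843, adjusted p = 0.946, limma) for E12.5 against E11.5.

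In the basement membrane class Col4a1 and Col4a2, the chains of the common type IV network, start head to head with gene spans that overlap by 85 bp. Both starts were called in E11.5 samples 1 and 2 and in no other list. Col4a1 had calls of 4, 4 and 1 in the E10.5 lists, 0, 4 and 7 in those of E11.5, and 10, 11 and 2 in those of E12.5, and Col4a2 had 0, 1 and 1, then 1, 1 and 5, then 5, 4 and 1. Their residual differences for E12.5 against E11.5 were 1.13 (SE 0.85) and -0.14 (SE 0.852), with adjusted p-values of 0.521 and 0.959 (limma). The pair Col4a3 and Col4a4 overlaps by 114 bp in the same way, and its shared start region chr1:82586724-82587483 was called in 6 lists, 2 at each stage. That pair was named after its values were seen.

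Col18a1, whose chain carries the endostatin fragment, had 15 regions with 0, 1 and 1 calls in the E10.5 lists, 0, 3 and 3 in those of E11.5, and 4, 8 and 3 in those of E12.5. Its residual difference was 1.79 (SE 0.827) for E12.5 against E10.5 and 1.42 (SE 0.827) for E12.5 against E11.5, and neither passed (adjusted p = 0.556 and 0.376, limma). The region chr10:77199851-77200406, 33.8 kb before its outer start, was called in E10.5 sample 3 and all 3 E12.5 lists, and the start region chr10:77166046-77166505 in 2 lists each of E11.5 and E12.5. Col15a1, a related basement membrane collagen, also had 15 regions, with 1, 4 and 2 calls, then 0, 1 and 1, then 1, 6 and 1. Its difference for E11.5 against E10.5 was -2.19 (SE 0.84, adjusted p = 0.324, limma).

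Type VI collagen is represented by Col6a2, with 14 regions. They had 1, 7 and 1 calls in the E10.5 lists, 0, 1 and 3 in those of E11.5, and 4, 5 and 2 in those of E12.5, and E10.5 sample 2 held the most. The residual differences were -2.01 (SE 0.872) for E11.5 against E10.5 and 1.02 (SE 0.872) for E12.5 against E11.5, with adjusted p-values of 0.403 and 0.581 (limma). The region chr10:76635706-76636233, 12.5 kb before the outer start, was called in the 3 E12.5 lists alone, with folds of 3.45, 2.19 and 2.82. A region over the start, chr10:76623200-76623602, was called in 1 list of each stage. Peaks within 1 kb of either Col6a2 start lay in 4 lists, namely E10.5 samples 2 and 3, E11.5 sample 3 and E12.5 sample 2. Col6a3 had 23 regions, with 2 calls in every E10.5 list, 0, 3 and 5 in those of E11.5, and 8, 8 and 2 in those of E12.5. Its difference for E12.5 against E11.5 was 1.18 (SE 0.841, adjusted p = 0.497, limma).

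Col19a1, a minor collagen, lies tail to tail with Col9a1, 4.94 kb apart, and had opposite calls at sites around its start. The region chr1:24586323-24587125, 858 bp after the start, was called in all 3 E11.5 lists alone, with folds of 5.06, 6.82 and 3.36. The region chr1:24594948-24595601, with its summit at -8075 bp from the start, was called in E10.5 sample 1 and in all 3 E12.5 lists. Over its 5 regions Col19a1 did not pass, with a residual difference of -1.19 (SE 0.849, adjusted p = 0.497, limma) for E12.5 against E11.5.

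Col26a1, one of the other collagens, had 28 regions. Inside the gene chr5:136827707-136828735 was called in E11.5 sample 3 and all 3 E12.5 lists, and it ranked at percentiles 96.8, 99.2 and 73.8 of the latter. A second inner region, chr5:136861122-136861759, was called in all 3 E10.5 lists and in E11.5 samples 2 and 3, and in 0 of 3 at E12.5. Col23a1 had 3, 3 and 0 calls in the E10.5 lists, 0, 4 and 13 in those of E11.5, and 8, 15 and 3 in those of E12.5, and its largest residual difference was 1.10 (SE 0.842, adjusted p = 0.736, limma) for E12.5 against E10.5. Col25a1, named after its values were seen, is a transmembrane collagen of neurons and muscle. Its start region chr3:130180322-130181587 was called in 8 lists, all but E12.5 sample 1.

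Counted over all members, few regions were called by every list of a stage and by no list of another. From E10.5 to E11.5, 2 of 247 collagen regions were gained, meaning called by all 3 later and none of the 3 earlier lists, and 0 were lost, against 1.12% and 0.26% of all regions called in these lists. From E11.5 to E12.5, 3 of 390 were gained and 3 lost, against 0.63% and 1.38%. From E10.5 to E12.5, 3 of 310 were gained and 2 lost, against 0.629% and 0.403%. The collagen shares, 0.645% to 0.968% wherever any were counted, were of the same order as these backgrounds. The single regions are those of Col19a1, Col5a2, Col6a2, Col18a1, Col9a1 and Col26a1 described above. With 3 lists against 3, an exact two-sided test of a single region cannot give a p under 0.1.

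These counts depend on single lists, because a region must be called by every list of a stage. Leaving 1 list out relaxes this rule for the regions of every gene. The matching shares over all regions are not given, so the counts below cannot be read as particular to collagen regions. Without E11.5 sample 1 the gains from E10.5 to E11.5 were 25 and the losses from E11.5 to E12.5 were 26. Without E12.5 sample 1 the gains from E11.5 and from E10.5 to E12.5 were 11 and 12, and without E12.5 sample 3 they were 20 and 22. Without E11.5 sample 3, gains from E11.5 to E12.5 were 5. Losses from E10.5 to E11.5 became 3, 1 and 4 without E10.5 sample 1, 2 or 3, and those from E10.5 to E12.5 became 4 without sample 1 or sample 3.

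Over the 32 collagen genes tested, 0 passed for E11.5 against E10.5, beside 0.191% of all genes, and 0 for E12.5 against E10.5, beside 0.0136% (limma). At an unadjusted p under 0.05 the collagen counts were 3, 2 and 2 in the comparisons of E11.5 with E10.5, E12.5 with E11.5 and E12.5 with E10.5. All genes gave 721 (9.82%), 1264 (17.2%) and 636 (8.66%). The median residual differences of the collagen genes were 0.16, 0.08 and 0.16, and those of all genes -0.18, 0.28 and 0.05. The 12 collagen genes with fewer than 5 regions, among them Col5a2, Col9a1, Col11a1 and Col3a1, hold 25 of the 431 regions and were not tested.

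**Figure D5:**
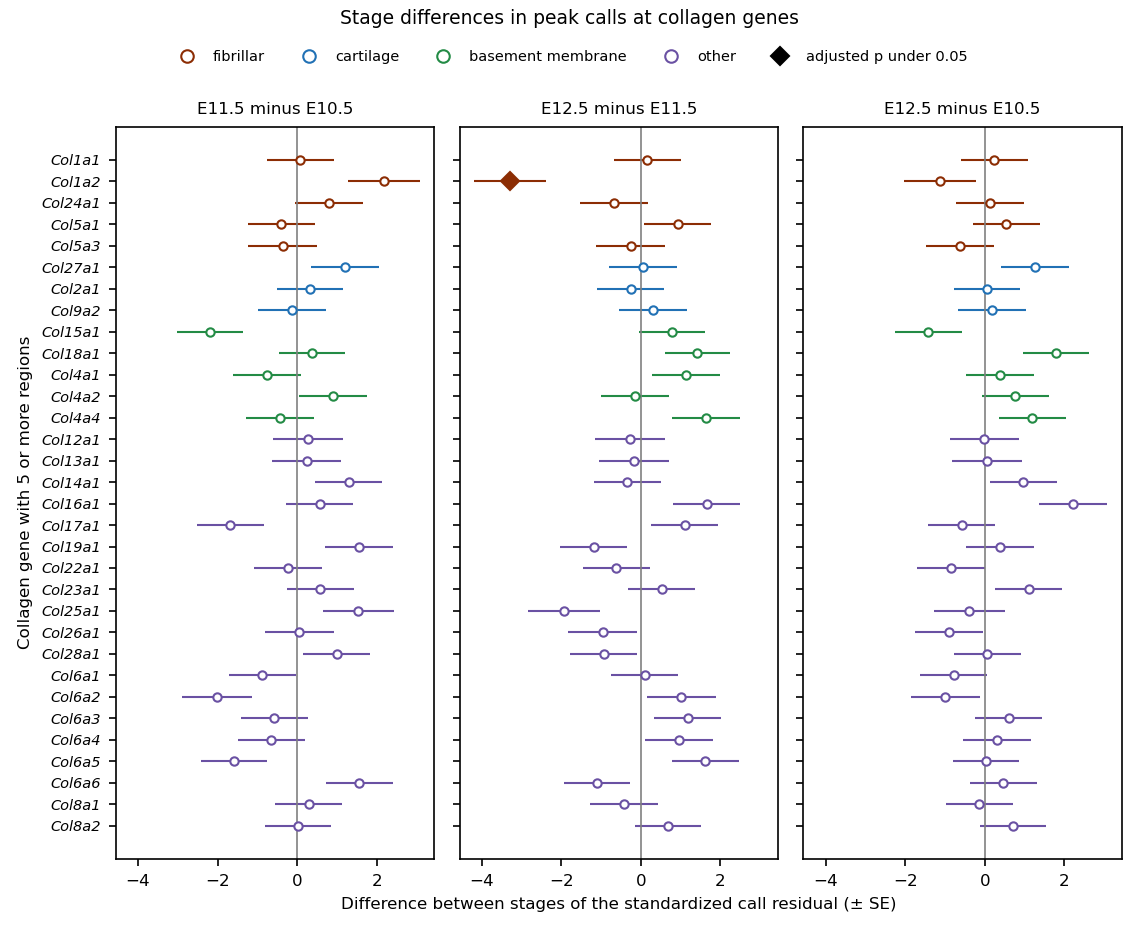
Differences between stages in the standardized call residual (x axis, no unit, ± SE from limma) for the 32 collagen genes with 5 or more regions, coloured by class. The filled diamond marks Col1a2 at -3.29 for E12.5 minus E11.5, the single value with an adjusted p under 0.05. Col1a2 reached the minimum of 5 regions through E11.5, so this value is a description.

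Genes that make, process or bind collagen were counted in the same fit. Of 44 such genes 22 had enough regions, and they comprised 8 of 23 for synthesis and crosslinking, 6 of 8 for procollagen processing, 7 of 8 receptors and 1 of 5 collagenases. Itga1, the alpha-1 chain of a collagen-binding integrin, passed for E11.5 against E10.5 with more calls, at a difference of 3.55 (SE 0.848, adjusted p = 0.0337, limma). It passed again for E12.5 against E11.5 with fewer calls, where the residual fell by 3.13 (adjusted p = 0.0206, limma). Its 9 regions had 0, 0 and 0 calls in the E10.5 lists, 2, 5 and 4 in those of E11.5, and 2, 1 and 1 in those of E12.5, so that E11.5 and E10.5 did not overlap. Of these regions 6 were called at E11.5 alone and 3 at another stage, so Itga1, like Col1a2, reached the minimum of 5 through its highest stage, and its values are a description. The first call was lost in 8 of 9 fits without 1 list, all but that without E11.5 sample 3, with adjusted p-values up to 0.255, and the second was lost without E11.5 sample 1 or 2 or E12.5 sample 2, up to 0.2 (limma). Adamts2, the protease that removes the amino-terminal propeptide of procollagen, passed for E12.5 against E11.5 with more calls, at a difference of 2.87 (SE 0.85, adjusted p = 0.0402, limma). Its 44 regions had 1, 5 and 6 calls, then 0, 1 and 7, then 11, 17 and 7, and 17 of them were called outside E12.5. The call was lost without any 1 of the 3 E11.5 lists or without E12.5 sample 1 or 3, with adjusted p-values of 0.0522 to 0.404, and its difference was 0.49 (adjusted p = 0.757, limma) over regions called by 2 to 8 lists. The 2 genes passing for E12.5 against E11.5 and the 1 for E11.5 against E10.5 stand among 22 tested, beside 3.17% and 0.191% of all genes. None of the other tested genes of these lists passed in any comparison.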

How the data were processed

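Peak lists of 9 mesenchyme samples, 3 per stage, were used, and libraries of 1 sample share 1 list. Per the submitters' processing notes, Bowtie2, deepTools 3.3.1 and MACS2 were used with mm10, and blacklisted regions were removed per the labels. The sources used here do not say how reads were filtered or shifted, or which peak threshold was set. Per the file format, the authors' deposited values are the position of each summit, its fold over background (a ratio) and its −log10 q-value and −log10 p-value. Each list was called on its own, and the lists hold no read counts, so depth is unknown and list length stands in for it.

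Peaks on 19 autosomes and X were merged when they overlapped by 1 bp or more. The strongest summit was the peak with the highest within-list percentile of the authors' −log10 p. Genes and start sites came from RefSeq on GRCm38.p6, and 35 of 44 collagen genes matched a start. A conditional logit model with 1 term per list and 1 per region gave the calls expected in each list, given a region's total of calls over the 9 lists. Genes with at least 5 regions that 1 to 8 lists called were tested with limma 3.58.1 (R 4.3.3, two-sided, stage as a factor, threshold 0.05), on code first tested on simulated calls. Its spread is largely pooled over genes (prior degrees of freedom 101). The other software was Python 3.11.15, NumPy 2.4.6, pandas 2.3.3 and Matplotlib 3.10.9.

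Members, collagen classes, pathway and marker lists were chosen with earlier results of these data known. Named genes were Col1a2, Col2a1, Col5a2, Col6a2, those passing a test, those with a gained or lost region, those called by all 9 lists and the 3 with the most regions in each class. Others are marked as named after their values were seen. Sample numbers were not treated as a pairing, except where a block is named. Alternatives changed peak threshold, list length, merging, gene assignment, distance, filters, the expected calls, the block and each list in turn.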

Additional observations from a re-analysis of the deposited data

How the results depend on the processing

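Of 19 alternatives, 13 tested Col1a2. Its lower residual at E12.5 than at E11.5 passed in 9 of them and not in 4, and in no case did it reverse. Those 4 each left out 1 list. Col1a2 reached the minimum of 5 regions through E11.5, so these fits share that selection and are a description. The adjusted p ran from 0.00488 to 0.142 (limma), and leaving out 1 list gave differences of -4.46 to -2.58. The other alternatives left the gene with too few regions. The number of collagen genes passing for E12.5 against E11.5 was 1, and 0 to 1 without 1 list. It was 0 with lists of equal length, with genes within 20 kb, with regions called by 2 to 8 lists and with 10 or more regions per gene, where 1, 29, 8 and 17 collagen genes were tested. It was 2 (Col23a1 and Col26a1) with a −log10 q of at least 5, where 3 were tested. Under that setting 82 of all 609 genes tested passed, beside 233 of 7342 in the main fit. For the other comparisons it was 0 under every alternative run.

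Without 1 list, gained regions ran from 2 to 25 (E11.5 against E10.5), 3 to 20 (E12.5 against E11.5) and 3 to 22 (E12.5 against E10.5), and lost regions from 0 to 4, 3 to 26 and 2 to 4. Fewer lists must then call a region, so more can qualify by construction. With a −log10 q of at least 5, which left 71 of 431 collagen regions, gains were 0, 1 and 0 in that order, and losses 0, 2 and 1. Lists of equal length left 54 regions, with gains of 0, 2 and 1 and losses of 0, 2 and 2. The matching shares over all regions are not given, so these counts cannot be read as particular to collagen regions. Collagen shares at the 3 stages were 0.117%, 0.155% and 0.26% with the stricter q and 0.139%, 0.102% and 0.246% with lists of equal length. With genes within 20 kb, E10.5 had 0.22% and E12.5 0.274%. Without 1 list, the shares stayed between 0.253% and 0.285%, 0.242% and 0.35%, and 0.316% and 0.346%.

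For the pathway genes the same alternatives were applied after the data were seen. Itga1 kept its call in 3 of 15 fits for E11.5 against E10.5 and in 9 of 15 for E12.5 against E11.5. Adamts2 kept its call in 10 of 17, and 0 calls of either gene reversed. The Itga1 fits share the selection through E11.5 and are a description.

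With the sample number as a replicate block, Col1a2 kept its call at a difference of -3.29 (adjusted p = 0.0111, limma), and the counts of collagen genes passing were 0, 1 and 0. Correlations of deviations between samples with the same number ran from -0.10 to 0.02 over 9 pairs, so the block is no evidence of pairing. Depth is unknown, so a missing call in a short list cannot be told apart from closed chromatin.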
